A study of Mus musculus with 8 samples.

Results

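Promoter H3K27ac and RNA level were compared gene by gene in mouse round spermatids (RS), the haploid germ cells that follow meiosis. The comparison took in 22253 genes on the 19 autosomes, of 23343 genes in the deposited tables. Acetylation at histone H3 lysine 27 (H3K27ac) was measured in RS of wild-type mice by ChIP-seq in 2 samples, and RNA was measured in RS of *Rnf8;Scml2* double knockout (dKO) mice by RNA-seq in 2 samples, so that every value of one assay comes from another genotype than the values of the other. The tables give the transcription start site of each gene as the start of the transcript on the plus strand and its end on the minus strand. The promoter signal was the highest fold enrichment of a peak overlapping the 2 kb either side of a start site, or 0 where no such peak was listed. The summit of a wide peak could thus lie outside this window. RNA level was the RPKM (reads scaled to transcript length and library size) summed over the isoforms of a gene. A gene was called acetylated when both ChIP replicates had a peak in the window and unacetylated when neither had one. It was called active at 3 RPKM or more in both RNA samples and silent under 0.1 RPKM in both. By this rule 11474 genes (51.6%) were acetylated, 1835 (8.25%) had a peak in a single replicate and 8944 (40.2%) were unacetylated, while 8438 genes were active, 5704 silent and 8111 in between.

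All cells came from testes of adult C57BL/6 mice and were separated by sedimentation at unit gravity. The series also holds pachytene spermatocytes (PS), cells in meiotic prophase, with 2 wild-type H3K27ac samples and 2 dKO RNA samples, 8 samples in all. The dKO animals lack both *Rnf8*, a ubiquitin ligase, and *Scml2*, a germline Polycomb protein, in every dKO library used here, and no wild-type RNA was analysed here. PS and RS of the mutant could be purified from a single male each, and the labels do not say which RS and PS samples shared an animal.

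H3K27ac is placed by the acetyltransferases p300 and CBP and is found on nucleosomes beside active start sites and at active enhancers. At promoters rich in CpG dinucleotides it tends to accompany unmethylated DNA and open chromatin. Round spermatids transcribe widely, store much of their RNA for later translation, and soon afterwards replace most histones, first by transition proteins and then by protamines.

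The 2 RS RNA samples had 12289694 and 10254532 reads on genes, and the 2 PS RNA samples had 9986207 and 9655405. The 2 RS H3K27ac samples had 74919 and 45863 peaks, whose lowest fold enrichments were 2.85 and 3.48, and 59.6% and 51.8% of autosomal genes had a peak in the window. Of the 1835 genes with a peak in a single replicate, 1784 had it in replicate 1, the sample with more peaks. Reads still fell on both targeted genes in the dKO: *Rnf8* had 61 and 50 reads in RS (2.15 and 2.09 RPKM) and *Scml2* had 44 and 98 (0.649 and 1.72 RPKM), and the tables do not say where in each gene those reads lie. Markers of other testis cells were present in the RNA. The summed RPKM of 11 Leydig cell markers was 79.2 and 49 in RS against 832 and 595 in PS, that of 20 Sertoli cell markers 118 and 89.1 against 129 and 64.7, and that of 10 macrophage and blood markers 44.5 and 39.1 against 3.78 and 3.43. In such bulk samples fewer cells of a type and less RNA per cell cannot be told apart.

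The start sites of 6 genes that stood far off the general relation are given here as 250 bases before and 50 bases after the start in the tables, read from the GRCm38.p6 (mm10) genome on the strand of the gene, with each CpG in capitals. *Gpbar1*, *Fbxl22* and *Sumo2* were acetylated and silent, and *Ccdc136*, *Ttc39d* and *Micalcl* were unacetylated and active.
Gpbar1 (chr1:74278350-74278649, plus strand): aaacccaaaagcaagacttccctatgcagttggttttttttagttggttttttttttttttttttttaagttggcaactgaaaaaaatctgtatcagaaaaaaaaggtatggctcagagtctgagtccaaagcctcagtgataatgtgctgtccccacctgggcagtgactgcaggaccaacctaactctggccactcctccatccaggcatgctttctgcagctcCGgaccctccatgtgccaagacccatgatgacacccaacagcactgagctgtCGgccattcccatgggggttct
Fbxl22 (chr9:66514544-66514843, minus strand): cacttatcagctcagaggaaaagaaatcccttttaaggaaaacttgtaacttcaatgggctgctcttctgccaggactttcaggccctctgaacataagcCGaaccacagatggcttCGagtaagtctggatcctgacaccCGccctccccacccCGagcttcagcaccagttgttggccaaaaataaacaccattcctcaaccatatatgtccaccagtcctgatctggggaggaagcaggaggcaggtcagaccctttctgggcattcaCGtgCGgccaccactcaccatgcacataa
Sumo2 (chr11:115536181-115536480, minus strand): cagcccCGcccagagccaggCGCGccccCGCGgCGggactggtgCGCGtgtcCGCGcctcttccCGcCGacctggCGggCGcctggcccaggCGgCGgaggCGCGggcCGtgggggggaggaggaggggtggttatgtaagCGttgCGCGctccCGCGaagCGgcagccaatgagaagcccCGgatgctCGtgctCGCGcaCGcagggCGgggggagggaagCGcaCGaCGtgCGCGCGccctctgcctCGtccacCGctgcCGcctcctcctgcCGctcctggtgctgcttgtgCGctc
Ccdc136 (chr6:29398676-29398975, plus strand): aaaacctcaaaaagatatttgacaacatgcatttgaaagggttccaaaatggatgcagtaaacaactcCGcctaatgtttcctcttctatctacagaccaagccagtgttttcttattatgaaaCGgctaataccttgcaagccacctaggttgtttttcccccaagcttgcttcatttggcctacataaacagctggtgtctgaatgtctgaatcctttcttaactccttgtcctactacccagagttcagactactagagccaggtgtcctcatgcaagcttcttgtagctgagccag
Ttc39d (chr17:80215664-80215963, plus strand): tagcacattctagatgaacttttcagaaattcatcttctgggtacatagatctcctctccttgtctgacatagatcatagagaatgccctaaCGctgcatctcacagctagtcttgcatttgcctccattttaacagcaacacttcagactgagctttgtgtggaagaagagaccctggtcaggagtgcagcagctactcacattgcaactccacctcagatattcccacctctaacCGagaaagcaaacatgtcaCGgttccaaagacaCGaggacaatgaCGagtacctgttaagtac
Micalcl (chr7:112368058-112368357, plus strand): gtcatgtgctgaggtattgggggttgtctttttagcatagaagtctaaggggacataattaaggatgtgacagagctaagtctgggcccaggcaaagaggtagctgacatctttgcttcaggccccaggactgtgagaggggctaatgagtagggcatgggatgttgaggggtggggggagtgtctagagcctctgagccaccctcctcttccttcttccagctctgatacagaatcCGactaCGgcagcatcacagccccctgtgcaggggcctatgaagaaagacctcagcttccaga
The start of *Sumo2* holds 42 CpG dinucleotides in its 300 bases, 0.963 of the number its base composition would give, whereas the other 5 windows hold 2 to 6. A CpG-poor window was thus found in genes of both classes. The peak of *Fbxl22* lay 806 and 1229 bases from its start, and that of *Gpbar1* covered its start and also another gene's.

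Across all autosomal genes the RNA level rose with the promoter signal. Spearman's coefficient of mean RPKM and promoter signal (the mean over replicates of log2(1 + fold enrichment)) was 0.775 over 22253 genes, and Pearson's r on log2(1 + RPKM) was 0.715. The 4 pairings of a ChIP replicate with an RNA replicate gave coefficients between 0.747 and 0.775. Genes are not replicates and neighbouring genes can share a peak, so these values describe the 4 samples and carry no test. In PS the same measure was 0.795. Pairing across stages gave nearly the same values, with a Spearman coefficient of 0.774 for RS signal with PS RNA and 0.746 for PS signal with RS RNA.

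**Figure D1:**
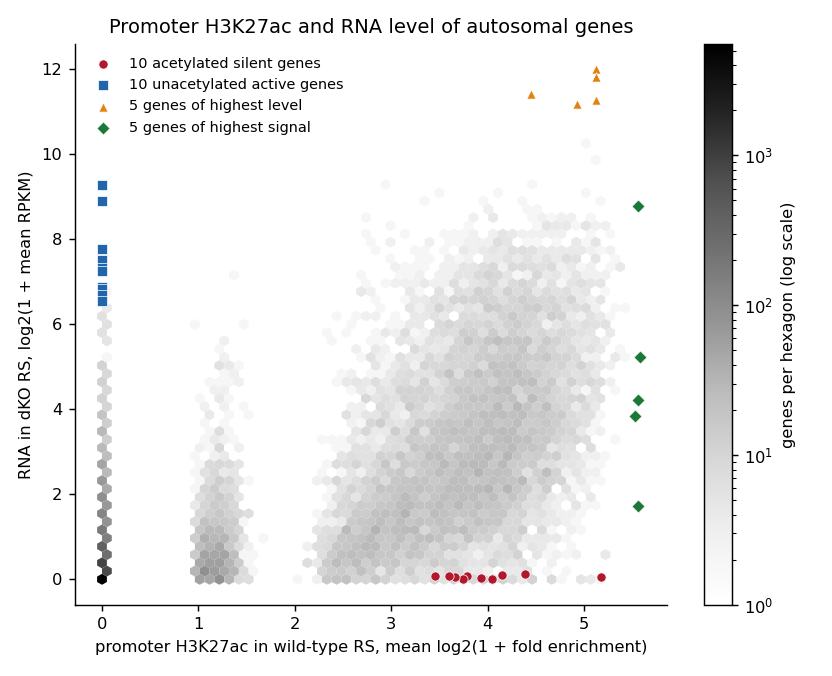
Promoter H3K27ac of wild-type RS (x axis, mean log2(1 + fold enrichment) of 2 replicates) against RNA level of dKO RS (y axis, log2(1 + mean RPKM) of 2 samples) for 22253 autosomal genes, as hexagons shaded by the number of genes on a log scale. Coloured points are the named genes: the 10 acetylated silent genes lie along the bottom, the 10 unacetylated active genes lie at a signal of 0, and the group between 0.9 and 1.7 on the x axis holds genes with a peak in a single replicate.

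Most of that relation lay between genes with and without a peak. The median RPKM of acetylated genes was 7.41 and 7.70 in the 2 RS samples, with lower and upper quartiles of 2.12 and 26.9 in sample 1. Genes with a peak in a single replicate had medians of 0.633 and 0.622, and unacetylated genes had medians of 0.0233 and 0.0149. Of the 8438 active genes, 91.8% were acetylated (95% Wilson interval 91.2 to 92.3) and 4.67% were unacetylated (4.24 to 5.14). Of the 5704 silent genes, 91.1% were unacetylated (90.4 to 91.9) and 4.61% were acetylated (4.10 to 5.19). Read from the other side, 67.5% of acetylated genes were active and 2.29% silent, against 4.41% and 58.1% of unacetylated genes. The Wilson intervals count genes as separate draws and cover counting error only.

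The share of genes with a peak climbed most steeply between 0.1 and 10 RPKM. Among 4198 genes with no read in either RS sample 4.48% were acetylated. The share was 15.4% at 0.1 to 0.3 RPKM, 36.9% at 0.3 to 1 RPKM, 67.8% at 1 to 3 RPKM and 85.4% at 3 to 10 RPKM. Above 10 RPKM it changed little, from 93.1% at 10 to 30 RPKM to 97.8% (175 of 179 genes) above 300 RPKM. The height of the peak also followed the RNA level, with a median fold enrichment among acetylated genes of 7.32 and 5.81 at levels above 0 and up to 0.1 RPKM, 15.1 and 11.6 at 3 to 10 RPKM, and 23.6 and 19.7 above 300 RPKM. Acetylated genes without a read departed from this order, with medians of 12.6 and 9.29, and are described below by kind of gene.

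**Figure D2:**
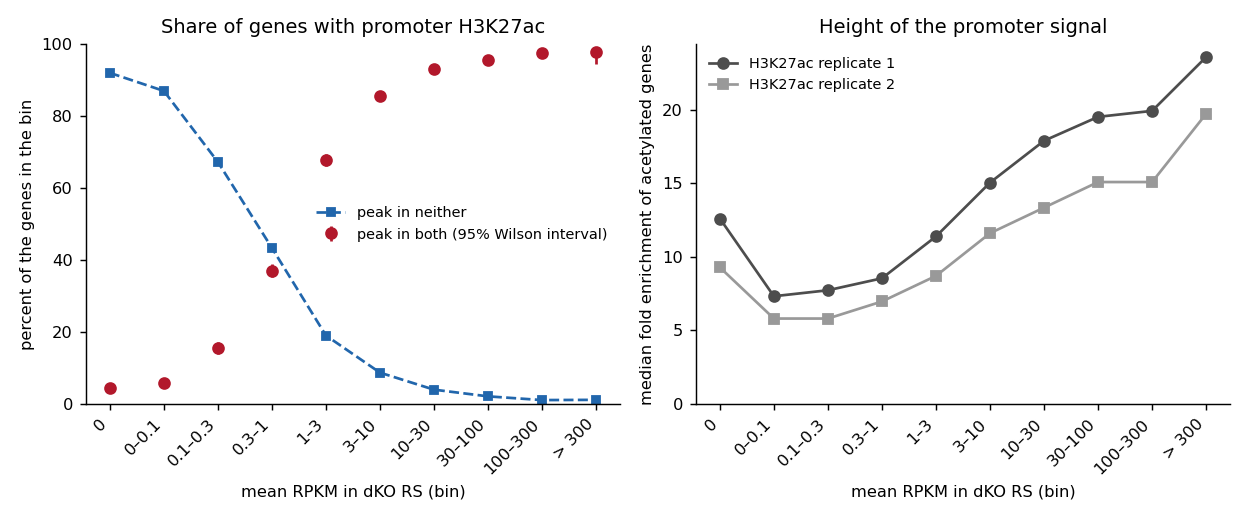
Share of autosomal genes with an H3K27ac peak (left, percent) and median fold enrichment of the acetylated genes in each ChIP replicate (right), by bins of mean RPKM in dKO RS; circles on the left have 95% Wilson intervals, and squares are genes with no peak. The share with a peak in both replicates goes from 4.48% of genes without a read to 97.8% above 300 RPKM, and the median peak height is lowest at 0 to 0.1 RPKM.

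Within the acetylated genes the relation was looser. Spearman's coefficient was 0.448 over 11474 acetylated genes and 0.288 over 8438 active genes, although the replicates themselves were closely alike (Spearman coefficient 0.938 for fold enrichment among acetylated genes and 0.983 for RPKM over all genes). In the lowest decile of signal, with median fold enrichments of 5.29 and 4.64, the median RPKM was 1.17 and 1.22, and 27.4% of genes were active. In decile 5, at 14.2 and 10.4, it was 7.16 and 7.68, and 69.5% were active. In the highest decile, at 32.1 and 26.1, it was 28.6 and 28.4, and 90.6% were active. The quartiles of level in that highest decile were still 9.93 and 83.7 RPKM. The share of silent genes fell from 6.36% in the lowest decile to 1.57% in the highest. Peak width followed peak height, in that width and signal had a Spearman coefficient of 0.854, and width and RNA level one of 0.448, over the acetylated genes.

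Genes whose peak lay away from the start had less RNA. A peak lay over a start site in both replicates at 9237 acetylated genes, whose median RPKM was 9.95 and 10.3. At 226 acetylated genes the nearest peak was 1 to 2 kb away in the farther replicate, and their median RPKM was 0.665 and 0.715. At 65 unacetylated genes it was 2 to 3 kb away, just outside the window, and the medians were 0.243 and 0.214.

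Promoters were also split by CpG content, a feature the rule did not use. Windows of 300 bases were read for 22250 genes, and 10789 of them had a CpG count of at least 0.6 of that given by their base composition. Of these CpG-rich promoters 79.3% were acetylated and 57.5% belonged to active genes, against 25.4% and 19.4% of 11461 CpG-poor promoters. Once a promoter was acetylated the classes were closer, with a median of 7.91 RPKM and 70.1% active for CpG-rich and 6.49 RPKM and 59.8% active for CpG-poor promoters. Peaks were lower at CpG-poor promoters (medians 12.2 and 9.29, against 15.9 and 12.2), while levels over 100 RPKM were more frequent there, at 354 of 2916 acetylated genes (12.1%) against 562 of 8556 (6.57%). Both classes kept a similar Spearman coefficient within the acetylated genes, 0.460 for CpG-rich and 0.418 for CpG-poor promoters.

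Short motifs were counted on both strands of the same windows, as matches of letters and not as bound sites. TATAAA, the core of the TATA box, was found in 12.8% of all promoters, in 6.43% of acetylated and in 21.9% of unacetylated ones. TGACGTCA, the full CRE site bound by CREB and CREM, was found in 2.38% of all promoters, in 3.80% of acetylated and in 0.749% of unacetylated ones. GGGCGG, a GC box, was found in 46.3% of all promoters, in 63.4% of acetylated and in 22.6% of unacetylated ones, and it contains a CpG as the CRE site does. CCAAT was spread evenly, at 38.6% and 36.8%.

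The genes of highest RNA level were those of spermatid chromatin and sperm metabolism. *Prm2* and *Prm1*, the protamines that package sperm DNA, had 3747 and 4408 RPKM and 3576 and 3640 RPKM in the 2 RS samples. *Tnp1* and *Tnp2*, the transition proteins, had 2596 and 2876 RPKM and 2588 and 2392 RPKM, and *Ldhc*, the testis lactate dehydrogenase, had 2358 and 2276 RPKM. All 5 were acetylated, but their peaks were not the highest. *Prm1*, *Prm2* and *Tnp2* lie side by side on chromosome 16 and shared a single peak of fold enrichment 36.6 and 31.3, and *Tnp1* had 22 and 19.7. In PS the RPKM of *Prm2* was 102 and 189 with fold enrichments of 14.8 and 15.3, so that both measures were lower at the earlier stage. *Prm1* was likewise lower in PS, at 104 and 166 RPKM and fold enrichments of 8.23 and 8.22. *Tnp2* had 82.2 and 163 RPKM in PS, but its fold enrichments there, 27.2 and 35.1, were not lower in both replicates. *Ldhc* was higher in PS in both measures, with 3357 and 3343 RPKM and fold enrichments of 37.9 and 40.0 in PS against 31.3 and 27.3 in RS. The promoters of *Prm1* and *Prm2* were poor in CpG, at 0.0487 and 0.139 of the number from base composition.

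The genes of highest promoter signal spanned more than 100-fold in RNA level. *Hbp1*, a transcriptional repressor, had fold enrichments of 47.6 and 42.4 and only 12.3 and 14.6 RPKM. *Hnrnph1*, a splicing factor, had 46.8 and 46.4 and 30.3 and 42.7 RPKM, and *Malat1*, a nuclear noncoding RNA, had 46.4 and 45.9 and just 2.13 and 2.44 RPKM. *1700003F12Rik* and *Actl10* are neighbours on chromosome 2 and shared a peak of 46.8 and 45.3, at 503 and 370 RPKM and at 18 and 17.2 RPKM. The RNA of dKO RS was also tested against that of dKO PS with edgeR's quasi-likelihood test, which is independent of the RS signal that chose these genes. *1700003F12Rik* was 3.64 ± 0.24 (SE) higher in RS on the log2 scale (edgeR adjusted p = 6.39e-06), *Actl10* 2.65 ± 0.25 (edgeR adjusted p = 3.30e-05) and *Hbp1* 0.84 ± 0.19 (edgeR adjusted p = 0.00448), each higher in 2 of 2 RS samples than in either PS sample. Their fold enrichments in PS were lower than in RS, at 24.7 and 26.9 for the shared peak and 31.7 and 28.5 for *Hbp1*. *Hnrnph1* was lower in RS by −0.79 ± 0.25 (edgeR adjusted p = 0.0224), a call that was lost without PS sample 2 (−0.34) or without RS sample 1 (−0.47). *Malat1* was 0.68 ± 0.21 higher (edgeR adjusted p = 0.0199), a call that was lost without PS sample 1 (0.50) or without RS sample 2 (0.69).

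Genes of sperm formation were almost all acetylated and active. All 14 genes of spermatid chromatin proteins were acetylated and 11 were active, with a median level of 227 RPKM in RS against 20.8 RPKM in PS. The 3 others were histone variants of earlier stages, such as *Hist1h2ba* (0.931 and 0.442 RPKM), whose promoter still carried fold enrichments of 19.9 and 13.9. All 24 genes of the acrosome and of sperm-egg fusion were acetylated and active (median 111 RPKM), as were 37 of 38 flagellum genes, in each measure. *Dnah2*, an axonemal dynein, was active with a peak in replicate 1 alone, and *Rsph4a*, a radial spoke protein of motile cilia, was silent (0.0392 and 0.0930 RPKM) under a weak peak of 4.07 and 4.64. All 32 genes of spermatid metabolism and signalling were active and 30 were acetylated; *Catsperb* and *Slc9c1*, parts of sperm ion transport, had a peak in replicate 1 alone. Height of peak and level parted within these lists too. *Crisp2* had 941 and 1045 RPKM under a peak of 10.2 and 11.6, and *Adam3*, a sperm surface protein, had 600.3 and 573 RPKM under one of 8.14 and 6.39, whereas *Odf2*, a protein of the outer dense fibres, had 1831 and 1827 RPKM under one of 39.9 and 37.2.

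Genes used in every cell were acetylated as often. Of 79 cytoplasmic ribosomal protein genes 78 were acetylated and 77 active, of 74 oxidative phosphorylation genes 71 were acetylated, of 38 proteasome genes 36, and of 19 housekeeping genes all 19. *Cox8c*, a testis subunit of cytochrome oxidase, stood out among them, with 392 and 384 RPKM under a peak of 11.4 and 6.39 in RS, where PS had fold enrichments of 49.4 and 49.9 and 1033 and 929 RPKM. Of 32 meiotic prophase genes 30 were acetylated and 27 active in RS. *Tex15*, needed for meiotic recombination and piRNA silencing, was active at 18.4 and 25.7 RPKM with no peak at its start in the tables, but another start in GENCODE had fold enrichments of 12.2 and 5.81. Of 21 spermatogonial genes 14 were acetylated and 7 active, and the active ones included *Ddx4* at 176 and 196 RPKM and *Dazl* at 34.6 and 39.3 RPKM, germline RNA regulators of many stages.

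Genes of other lineages were seldom acetylated or active. Of 90 developmental transcription factors 5 were acetylated, 3 active and 38 silent, and 49 lay between the active and silent levels. Of 39 Hox genes 2 were acetylated, 2 active and 18 silent, and 19 lay in between. *Hoxd8* had 28.7 and 29.0 RPKM under a peak of 10.6 and 6.97, while *Hoxa4* had 31.4 and 31.0 RPKM and a peak of 5.70 in replicate 1 alone. Of 1082 olfactory receptor genes 12 were acetylated and 1032 were silent, of 302 vomeronasal receptor genes 3 were acetylated and 286 silent, and of 104 keratin and keratin-associated genes 2 were acetylated and 84 silent. *Olfr1275* was the olfactory receptor of highest signal among the silent ones, with 17.9 and 16.3 and no read in any library. The nearest peak lay 1254 and 1330 bases from its start. In both replicates a peak in its window also covered another gene's start, and *4930430A15Rik*, which begins within 4 kb, was active. Markers of other testis cells were acetylated less often than the 51.6% of all autosomal genes. The counts were 5 of 20 Sertoli, 1 of 11 Leydig, 1 of 10 peritubular and vascular and 1 of 10 macrophage and blood markers. In the RNA 9, 1, 1 and 2 of these markers were active. The share of active Sertoli markers, 45%, was above the 37.9% of all autosomal genes.

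**Figure D3:**
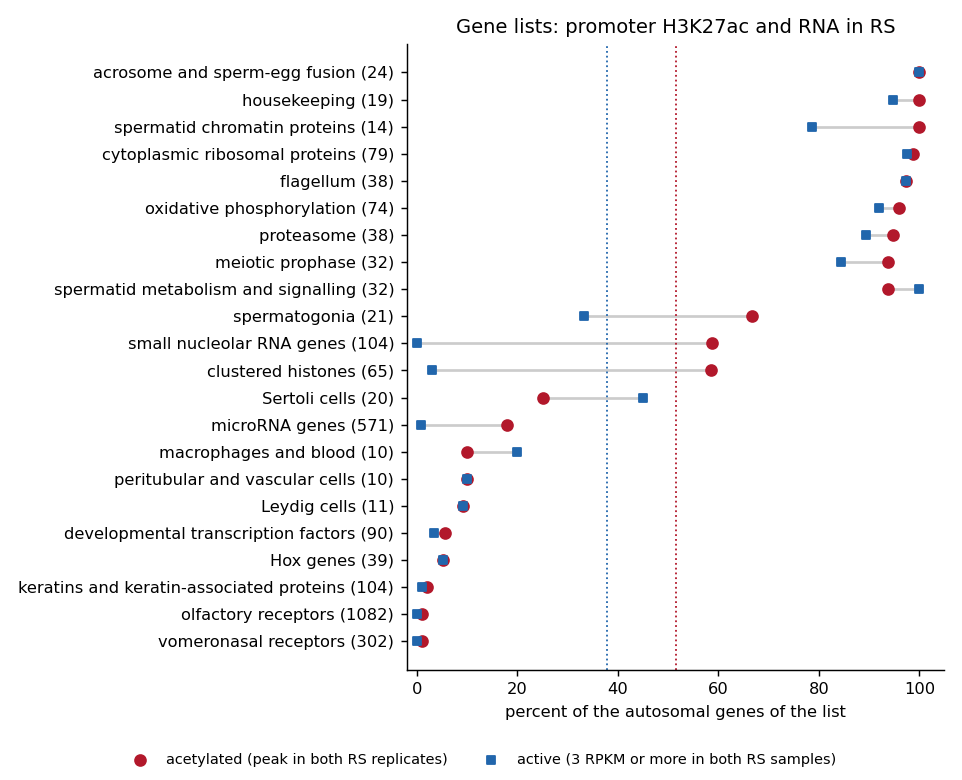
Percent of the autosomal genes of each list that were acetylated in both wild-type RS replicates (red circles) and active in both dKO RS samples (blue squares), with the number of genes in parentheses; dotted lines mark the same shares over all 22253 autosomal genes, 51.6% and 37.9%. Lists of sperm formation and of general cell functions sit at the top with both shares high, whereas small nucleolar RNA genes and clustered histones were acetylated in more than 55% and active in fewer than 5%.

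The 263 acetylated silent genes comprised 83 microRNA genes, 41 genes of small nucleolar and Cajal body RNAs, 12 clustered histone genes, 60 other genes with a protein-coding RefSeq accession (NM) and 67 other genes without one. A span under 200 bases was found for 125 of them (47.5%), and 188 had no read in either RS sample. Their peaks had median fold enrichments of 11.8 and 8.71, below the 17.5 and 13.4 of acetylated active genes, and a highest value of 39.9 and 38.3. They were also narrower than at acetylated active genes, with a median width of 1356 against 2082 bases. Of the 263, 85 (32.3%) had no other start within 4 kb, against 70.5% of all acetylated genes. Another gene began within 4 kb of the other 178, and at 103 of these (57.9%) such a neighbour was active. The share with an active neighbour was not computed for all acetylated genes. The peak itself covered another gene's start at 114 (43.3%), against 23.6% of all acetylated genes. Of the 122 among them that are microRNA, small nucleolar or Cajal body RNA genes spanning under 300 bases, 57 (46.7%) lay inside an active gene, against 42.2% of all 638 such genes. Among the acetylated silent genes that have no NM accession or have another start nearby, those of highest signal included such genes. *Snord49a* had 39.1 and 38.3 and lies inside *2410006H16Rik*, *Mir5131* had 39.9 and 31.3 and lies inside *Ddhd1*, and *Snora28* had 35.0 and 31.9 and lies inside *Eif5*. None had a read. The labels give the RNA as polyadenylated, while the study's methods describe total RNA amplified to cDNA, and how well either recovers small RNAs was not tested; *Snora64*, for one, had 3 and 6 reads.

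Histone genes of the clusters made a second kind. Of 65 clustered histone genes 38 were acetylated, 33 were silent and only 2 were active in RS. *Hist1h2bp* had 42.0 and 29.3 RPKM, and *Hist1h2an*, which begins beside it and shares its peak of 21.6 and 19.7, had no read. Members of these families are nearly identical in sequence, and their messenger RNAs mostly lack a poly(A) tail, so their levels in these uniquely aligned libraries are uncertain.

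That leaves 36 acetylated silent genes with an NM accession and no other start within 4 kb. Their peaks were lower, with medians of 6.71 and 5.51, and in PS 20 of the 36 were acetylated and 28 silent. *Gpbar1*, a bile acid receptor (chr1:74278600-74279589), had by far the highest signal, 35.4 and 34.8, with 1 read in RS sample 1 and none in sample 2. Its peak is the only one of the 36 that also covers the start of another gene. The single read in RS sample 1 gives *Gpbar1* 0.0722 RPKM, and 3 reads in that sample would give 0.217 RPKM, above the silent limit of 0.1 RPKM. *Pcdhb12*, a protocadherin of a gene cluster with close relatives, had 22 and 18 at 0.0942 and 0.0839 RPKM. *Fbxl22* (chr9:66508459-66514593), an F-box protein of muscle, had 19.9 and 13.9 at 0.0730 and 0.0691 RPKM, and its peak lay 806 and 1229 bases from the start. *Sumo2* (chr11:115523109-115536230), a ubiquitin-like modifier, had 17.1 and 13.9 with no read in RS. *Nanp*, a phosphatase of sialic acid synthesis (chr2:151029685-151039379), had 16.7 and 12.2 at 0.0520 and 0 RPKM. *Sumo2* has processed copies elsewhere in the genome, and because only unique alignments were kept, its count of 0 is uncertain.

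In PS these genes fell into separate patterns of signal at the same lack of RNA. *Fbxl22*, *Sumo2* and *Nanp* had higher peaks in PS, at 31.3 and 41.1, 29.2 and 32.3, and 27.2 and 24.7. *Gpbar1* and *Pcdhb12* had lower ones, at 17.3 and 16.4 and at 9.05 and 12.1. *Ect2l* went from 3.70 and 4.38 in PS to 14.6 and 11 in RS, with RS peaks 1309 and 1987 bases from its start, and *Krtap9-3*, a hair keratin-associated protein, from 6.17 and 4.93 to 15.5 and 9.87. *Vmn2r86* had 13.0 and 10.4 in RS and a peak in 1 of the 2 PS samples, as did *Gm21119* with 11.8 and 10.4. *Zfp457* had 11.4 and 8.71 in RS and 7.82 and 10.4 in PS. Fold enrichment is relative to each sample's own background, and no scaling between samples was applied.

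**Figure D4:**
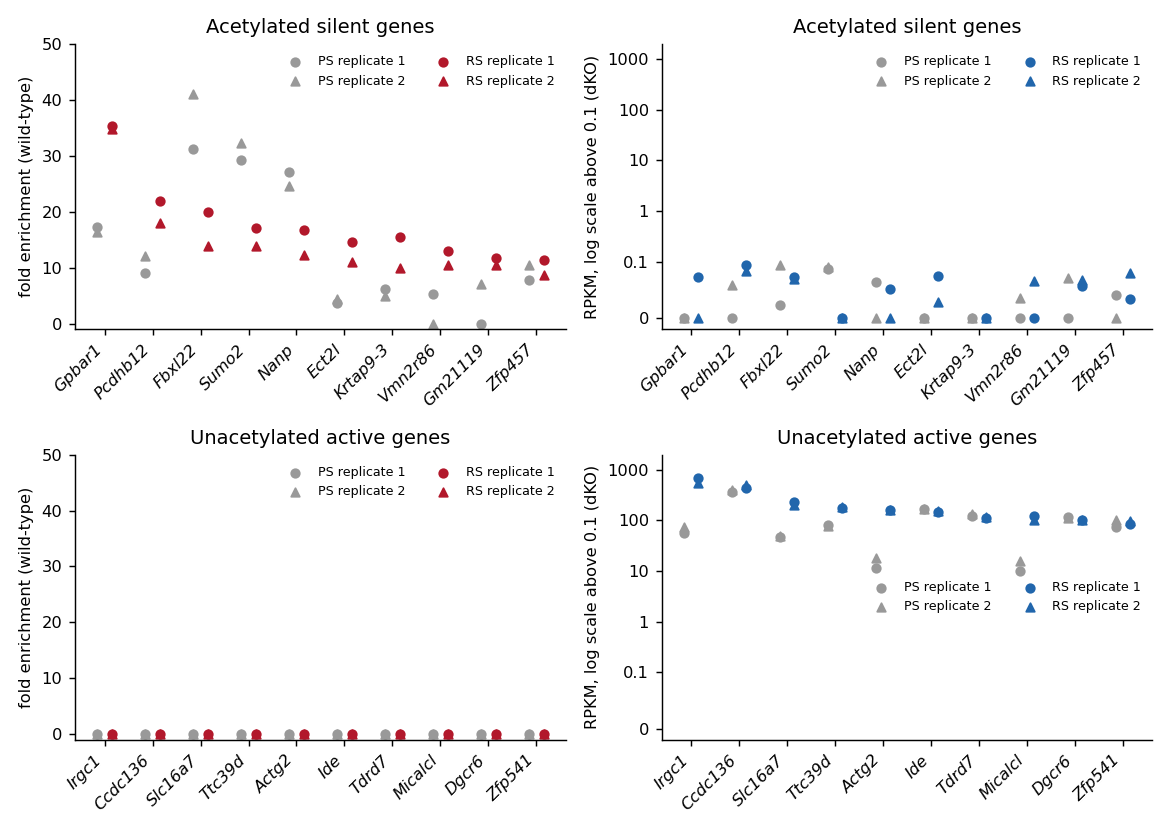
The 10 acetylated silent genes (top) and the 10 unacetylated active genes (bottom), each with its fold enrichment of promoter H3K27ac in wild-type cells (left) and its RPKM in dKO cells (right, log scale above 0.1), in 2 PS samples (grey) and 2 RS samples (coloured). The silent genes have RS fold enrichments from 8.71 to 35.4 at no more than 0.0942 RPKM in RS, and the active genes lie at a fold enrichment of 0 in all 4 ChIP samples at 86.6 RPKM or more in RS.

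The 394 unacetylated active genes were mostly protein-coding, as active genes were in general. An NM accession was found for 367 (93.1%), against 94.9% of all active genes. Among the 394, 2 were microRNA genes, and the median span was 32135 bases. No other start lay within 4 kb of 376 (95.4%), against 91.5% of all unacetylated and 73.1% of all active genes. For the 394 the nearest peak was a median of 21143.5 bases away. Their median level was 7.24 RPKM in RS and 4.44 RPKM in PS. Their promoters were poor in CpG, with a median of 0.303 of the number from base composition, against 0.814 for acetylated active and 0.193 for unacetylated silent genes.

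Peaks elsewhere in the gene were frequent in this class. Of the 365 genes longer than 4 kb, 205 (56.2%) had a peak in both replicates inside the gene and outside the 2 kb windows, against 40.9% of acetylated active and 7.0% of unacetylated silent genes of that length. Adding the starts that GENCODE M21 lists under the same symbol placed a peak in both replicates at 154 of the 364 genes found there (42.3%), against 21 of 4739 unacetylated silent genes (0.443%). A further 71 had a peak in the gene body but at no listed start, and 139 had neither. Acetylated active genes had a median span of 20039 bases and unacetylated silent genes one of 4581 bases. The median number of GENCODE starts was 4 for unacetylated active and 2 for unacetylated silent genes. The differences in span and in number of starts were not corrected for.

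Most of the 10 genes of highest level with an NM accession had a peak at a GENCODE start. *Irgc1*, an interferon-inducible GTPase family member expressed in spermatids (chr7:24431926-24445682), had 679 and 556 RPKM in RS against 56.9 and 73.0 in PS. An RS peak of 41.9 and 33.1 lay elsewhere in the gene, within 2 kb of a GENCODE start. *Ccdc136*, an acrosome protein (chr6:29398926-29426995), had 447 and 507 RPKM, and the nearest peak of 13.0 and 10.4 lay inside the gene, 3399 and 3917 bases from the start and within 2 kb of a GENCODE start. *Slc16a7*, a monocarboxylate transporter, had 232 and 199.7 RPKM with a peak of 26.9 and 23.8 inside it. *Ttc39d* (chr17:80215914-80217936) had 180 and 183 RPKM and another start with 38.2 and 31.9. *Actg2*, a smooth muscle actin, had 160 and 158 RPKM with a peak of 21.2 and 15.1 inside it. The peaks inside *Slc16a7* and *Actg2* also lay at GENCODE starts. *Micalcl* (chr7:112368308-112413104), which binds ERK kinases in spermatids, had 124 and 101 RPKM with a peak of 21.6 and 20.9 inside it, beginning 2467 and 3371 bases from the start. Its symbol was not found in GENCODE. For all 6 genes but *Ccdc136* the level in each RS sample was more than 2 times that in either PS sample.

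The 4 remaining genes of the 10 had similar levels at both stages. *Tdrd7*, a Tudor protein of the chromatoid body, had 111 and 120 RPKM in RS and 121 and 133 in PS, with a peak of 13.0 and 13.9 at a GENCODE start. *Dgcr6* had 104 and 101 RPKM with one of 15.9 and 10.4, and *Zfp541*, a zinc finger protein of spermatocytes, had 86.6 and 98.5 RPKM with one of 15.1 and 11.6, both also at a GENCODE start. *Ide*, the insulin-degrading enzyme, had 149 and 153 RPKM, no peak at any listed start and a peak of 22 inside the gene in replicate 1 alone. Among genes without an NM accession *Mir761*, inside *Nrd1*, had 102 and 118 RPKM, *1700019G24Rik* 80.5 and 63.3 RPKM and *9530082P21Rik* 26.8 and 32.9 RPKM. The host of *Mir761* shares its sequence, and its reads cannot be assigned to the microRNA.

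Markers of other testis cells were among these genes. Of the 394, 8 belong to the lists of Sertoli, Leydig, vascular or macrophage markers. *Insl3*, the Leydig cell hormone, had 60.0 and 35.8 RPKM in RS and 593 and 450 RPKM in PS. *Lyz2* and *Csf1r*, macrophage genes, had 30.2 and 25.7 and 6.68 and 5.81 RPKM in RS, against 1.99 and 1.02 and 0.543 and 0.418 in PS. *Clu*, a Sertoli cell gene, had 28.1 and 14.5 RPKM in RS, no RS peak, and fold enrichments of 5.35 and 9.87 in PS. The others were *Cst9*, *Aard*, *Trf* and *Vwf*, at 3.57 to 10.3 RPKM. Without these 8 genes 386 remain, and the part of other cells in the rest was not tested.

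The promoter state in PS was the same for most members of both classes, but for smaller shares than of genes with that RS promoter state in general. Of the 263 acetylated silent genes 220 (83.7%) were also acetylated in PS, against 96.2% of all genes acetylated in RS, 213 were silent there and none was active. Of the 394 unacetylated active genes 314 (79.7%) had no peak in either PS sample, against 91.4% of all genes unacetylated in RS, 49 (12.4%) were acetylated there, 221 (56.1%) were active there and none was silent. The level was higher in both RS samples than in either PS sample for 234 of them and lower for 103, a description only, since the RS level chose them.

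The stage comparison itself asked how the RNA of dKO RS differed from that of dKO PS in genes grouped by wild-type promoter signal, which the RNA did not choose. The edgeR quasi-likelihood test with Benjamini-Hochberg adjustment, with calls at 1.5-fold and an adjusted p under 0.05, called 4448 of 14647 genes on all chromosomes (30.4%) higher and 4049 (27.6%) lower in RS. Among the 14167 autosomal genes tested, 4149 (29.3%) were higher and 4042 (28.5%) lower. Of 10795 acetylated genes tested, 2750 (25.5%) were higher and 3441 (31.9%) lower, with a median log2 change of −0.17, close to the background of all autosomal genes. The extremes of RS signal differed from its middle. In the highest decile 43.9% were higher and 17.7% lower, in decile 5 18.1% and 40.0%, and in the lowest decile 30.0% and 22%. Of the unacetylated genes only 23.9% (2138) passed the filter on low counts; 955 of these were higher and 388 lower, counts that fell to 397 and 229 without RS sample 1 and to 410 and 238 without RS sample 2. Most of the class was not tested, so these counts do not describe it.

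The change in promoter signal between stages went with the change in RNA. Over 11040 genes acetylated at both stages, Spearman's coefficient of the RS minus PS difference in signal with that in log2(1 + RPKM) was 0.425 and Pearson's r was 0.544. These genes were split into deciles of the signal difference. In the decile of greatest gain (median difference 0.93 on the log2 scale), 877 of 1028 genes tested (85.3%) were higher in RS and 37 (3.60%) lower, with a median log2 change of 2.83, against the 29.3% and 28.5% of all autosomal genes. Their median level was 21.1 and 20.2 RPKM in RS and 4.38 and 5.47 RPKM in PS. In the decile of greatest loss (median −1.30), 7.20% were higher and 49.3% lower, with a median log2 change of −0.60. The share higher in RS grew mainly in the last deciles, with 27% higher in decile 8, 39.7% in decile 9 and 85.3% in decile 10. The count of 37 was 22 without RS sample 1.

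**Figure D5:**
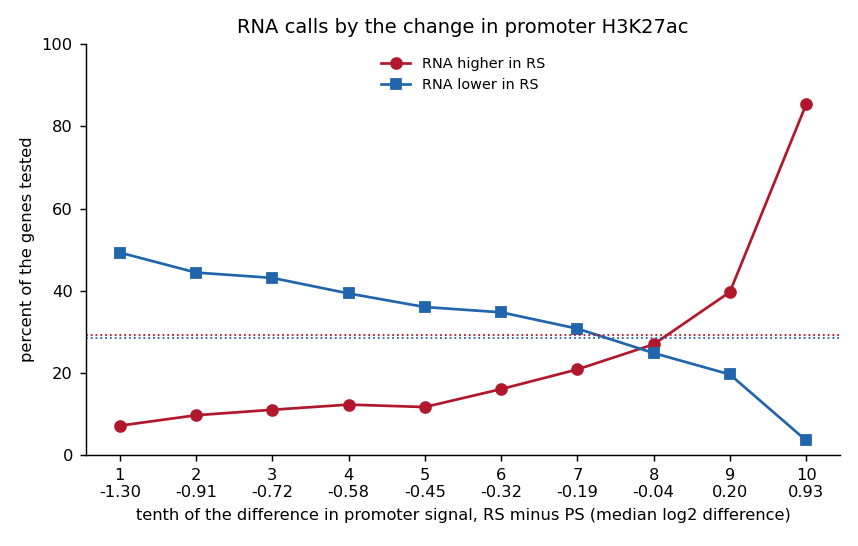
Percent of tested autosomal genes called higher (red circles) or lower (blue squares) in dKO RS than in dKO PS, by deciles of the difference in wild-type promoter signal between RS and PS among genes acetylated at both stages; the median difference (log2) stands under each decile, and dotted lines are the shares over all autosomal genes tested, 29.3% and 28.5%. The share higher in RS goes from 7.20% to 85.3% and the share lower from 49.3% to 3.60%.

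Genes that had a peak at one stage only were few. Of 235 genes acetylated in RS and without a peak in PS, 156 were tested, and 125 (80.1%) were higher in RS and 9 (5.77%) lower, with a median log2 change of 2.55. The 125 fell to 71 without RS sample 1 and to 72 without RS sample 2. In the converse set the calls were at or below the background. Of 414 genes acetylated in PS and without a peak in RS, 270 were tested, and 51 (18.9%) were lower in RS and 75 (27.8%) higher, with a median log2 change of 0.20. These became 33 and 34 without RS sample 1 and 30 and 39 without RS sample 2. Both sets were low in RNA, with median levels of 1.12 and 0.451 RPKM in RS.

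The spermatid lists were more often higher than lower in RS, read against the 29.3% and 28.5% of all autosomal genes. Of 13 spermatid chromatin genes tested 10 were higher in RS and 1, *Hist1h2ba*, lower, a call that was lost without either RS sample, while without either PS sample the gene fell under the filter on low counts. The counts were 16 and 3 of 32 genes of spermatid metabolism and signalling and 11 and 2 of 24 acrosome genes. The flagellum genes were nearer the background, at 14 and 9 of 37 with a median log2 change of 0.081. *Smcp*, the mitochondrial capsule protein of the sperm tail, had 1238 and 1334 RPKM in RS and 70.4 and 121 in PS, under peaks of 32.5 and 29.6 and of 14.8 and 14.3. Of 32 meiotic genes 6 were higher and 13 lower. Among genes of general functions, 34 of 69 oxidative phosphorylation genes were lower in RS. Of 35 proteasome genes 14 were lower and 1 higher, and of 19 housekeeping genes 7 were lower and 3 higher. Lower calls were made for 19 of 78 ribosomal protein genes (11 without RS sample 2), a share near the background. Of the lists of other cells and earlier germ cells, 10 of 10 Leydig markers tested were lower and 6 of 6 macrophage and blood markers higher in RS (2 of 6 when either RS sample was left out), as the summed levels given at the start were. Of 16 Sertoli markers tested 7 were higher and 1 lower (4 to 10 higher with a sample left out), of 10 peritubular and vascular markers 3 and 1 (2 to 5 higher), and of 20 spermatogonial genes 8 and 1 (6 to 15 higher).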

How the data were processed

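The 8 samples fell into 4 groups of 2 by their labels, namely wild-type H3K27ac in PS and in RS, and dKO RNA in PS and in RS. Per the submitters' processing notes, reads were aligned to mm10 with Bowtie 1.1.1 (ChIP-seq) or STAR 2.4.2a (RNA-seq) and peaks were called per sample with MACS2 2.1.0.20140616. The peak lists, as the authors deposited them, give the pileup signal at each summit, its fold enrichment and its −log10 p and q values. Within each sample every fold enrichment equalled the pileup plus 1 over a constant background (1.46 and 0.723 fragments in RS) plus 1. For RNA-seq the authors kept unique alignments with at most 2 mismatches, divided reads among RefSeq isoforms by expectation maximization, and deposited estimated counts and RPKM per isoform. Unique alignment removes reads of near-identical genes. The labels give the RNA as polyadenylated, and the study's methods describe total RNA amplified to cDNA with the NuGEN Ovation system.

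Isoforms were summed to genes, and 30 genes listed both on autosomes and elsewhere were left out, as were the sex chromosomes. Promoter signal, classes and levels were computed as given in the report, with no scaling between ChIP samples. Correlations and shares across genes carry no test. Estimated counts were rounded and RS was tested against PS with edgeR 4.0.16 (TMM, quasi-likelihood F-test, Benjamini-Hochberg adjustment) in R 4.3.3, keeping genes that reached 10 counts in 2 or more samples, with stage as the only term. Groups of 2 are too small for an exact permutation test of any gene to pass 0.05. A count of 0 was taken to allow up to 3 expected reads, a conventional bound, which is 0.244 and 0.293 reads per library scaled to RPM in the 2 RS samples. All intervals cover counting error only.

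Named genes were the 10 acetylated silent genes of highest signal with an NM accession and no other start within 4 kb and 5 of the others, the 10 unacetylated active genes of highest level with an NM accession and 3 without, the 5 genes of highest signal, the 5 of highest level, and the 2 of highest level and any discordant ones in each list. *Dnah2*, *Catsperb*, *Slc9c1*, *Hist1h2ba*, *Smcp* and the genes named under other observations were chosen after their values were seen where the rule did not give them. The members, classes and lists were chosen with earlier results of these data known. Sequences came from the GRCm38.p6 genome, and all 14276 RefSeq promoter entries that matched a start within 50 bases were identical to it. 1 promoter window is not reported here. GENCODE M21 starts were added as an alternative.

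Alternatives covered the window (1 and 5 kb), the summit in place of the peak edge, thresholds, gene filters, PS in place of RS, DESeq2 1.42.0, normalisation, the replicate block and leaving out each sample. Python 3.11.15 with pandas 2.3.3, numpy 2.4.6, scipy 1.17.1 and matplotlib 3.10.9 served for the rest. The search for peaks in a window and the edgeR test were each checked on simulated data. The comparison of genotypes that the authors made was not repeated here, since a single RNA genotype was analysed.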

Additional observations from a re-analysis of the deposited data

How the results depend on the processing

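The direction of the relation between promoter H3K27ac and RNA level held under every alternative run. Its Spearman coefficient of 0.775 became 0.759 with a window of 5 kb, 0.798 for genes with an NM accession, 0.796 for genes with no other start within 4 kb, 0.789 for spans of at least 500 bases, 0.637 for genes with at least 10 reads, 0.795 with PS in place of RS and 0.794 with GENCODE M21 starts added, an alternative chosen after seeing the data. Leaving out a sample gave 0.753 to 0.777. With the summit required inside the window the coefficient was 0.779. That alternative moved the promoter signal of 14 named genes beyond their replicate spread, while 80 stayed within it. The 263 acetylated silent genes depended most on the definition. They became 419 with a window of 5 kb, 72 with an NM accession, 85 with no other start within 4 kb, 128 with a span of at least 500 bases, 2 with at least 10 reads, 496 with silent set under 0.3 RPKM, 505 with a peak in at least 1 replicate, 481 in PS and, chosen after seeing the data, 149 where the peak covered no other gene's start. Leaving out a sample gave 277 to 491, the highest without ChIP replicate 2. The 394 unacetylated active genes became 899 with active set at 1 RPKM, 140 at 10 RPKM and 212 with GENCODE starts, and 405 to 684 when a sample was left out, the highest without ChIP replicate 1. Causes other than the changed definition were not tested.

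Of the calls between stages, leaving out 1 RNA sample moved the unacetylated genes higher in RS to between 397 and 965, those lower to between 229 and 326, and the genes of the top decile of signal difference lower in RS to between 22 and 37; the sample left alone in its group is then assumed to vary as the other group does. DESeq2 called 2508 acetylated genes higher and 3167 lower, against 2750 and 3441. With the replicate block edgeR called 2818 and 3488. The labels do not say whether same-numbered PS and RS samples share an animal (correlation of their deviations 0.225, with 2 pairs). Of the calls counted here under the block, only Sertoli markers lower in RS moved by over 1.5 times, from 1 to 2. Signs turned for 4 genes that were not called: leaving out a sample gave −0.20 to 0.046 for *Tdrd7*, −0.12 to 0.40 for *Zfp541*, −0.0062 to 0.54 for *Meig1* and −0.16 to 0.83 for *Ctsl* (log2). Among called genes whose calls the text gives, *Hnrnph1*, *Malat1* and *Hist1h2ba* lost them when a sample was left out. ChIP depth is known only through peak numbers and background, so a missing peak is not shown to be missing acetylation.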

Other observations

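Genes whose promoter peak was present at a single stage, named after their values were seen, differed in how much RNA went with it. *Fam19a3*, a secreted brain peptide gene, had fold enrichments of 25.2 and 18.6 in RS and none in PS, with 1.92 and 1.89 RPKM in RS against 0.0610 and 0.250 in PS, and was higher in RS by 3.64 ± 0.46 (SE) on the log2 scale (edgeR adjusted p = 0.000200). *4930415F15Rik* had 25.2 and 16.3 in RS and none in PS, with 63.5 and 53.7 RPKM against 6.29 and 8.25 (3.05 ± 0.22, edgeR adjusted p = 8.81e-06). *Sec16b* had 19.1 and 11.6 in RS and none in PS, yet 0.246 and 0.643 RPKM against 0.395 and 0.206, and no call was made. In the other direction *Sgpp2*, a sphingosine phosphatase, had 18.9 and 17.5 in PS and none in RS, with 9.30 and 7.03 RPKM in PS against 1.24 and 1.59 in RS (−2.49 ± 0.22, edgeR adjusted p = 2.75e-05). *Sult2a2*, a sulfotransferase, had 31.3 and 37.8 in PS and none in RS, with no read in any of the 4 RNA samples.

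The relation was similar on each autosome. Spearman's coefficient over the genes of a chromosome lay between 0.734 on chromosome 8 and 0.803 on chromosome 2, and the share of acetylated genes between 43.3% on chromosome 7 and 59.1% on chromosome 5. Chromosome 11 held 37 of the 263 acetylated silent genes and chromosome 19 held 6.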
